A study of Mus musculus with 2 samples.

Results

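The genes described here are *Npc1*, *Npc2*, *Lipa*, *Stard3*, *Abca1* and *Abcg1*, 6 of the 31053 genes listed in both deposited count matrices, which were taken by name because their products release cholesterol in the lysosome, carry it out of the lysosome or pump it out of the cell. They were measured by 10x Genomics 3′ single cell RNA sequencing, which counts captured molecules by unique molecular identifiers (UMIs), in islet cells of mice aged 2 weeks. One library came from WT mice and the other from Npc1KO mice, called *Npc1*-/- below, and per the labels each was made from the pooled islets of 3 female mice. The mice had a C57BL/6J background, and *Npc1*-/- pups and WT littermates came from heterozygous parents. The deletion was global, so that it affected every islet cell type and all other organs of these mice, and all islets were dispersed with trypsin.

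Cholesterol taken up with low density lipoprotein (LDL) reaches the lysosome as ester. Lysosomal acid lipase (*Lipa*) frees it, the soluble protein NPC2 binds it in the lumen and passes it to NPC1 in the lysosomal membrane, and the loss of NPC1 or NPC2 causes Niemann-Pick disease type C, in which cholesterol stays in the lysosome. STARD3 holds late endosomes at the endoplasmic reticulum and moves sterol between them, while the transporters ABCA1 and ABCG1 load cholesterol onto lipoprotein particles outside the cell and are classical targets of the oxysterol receptors LXRα and LXRβ. In β cells, ABCA1 is known to keep membrane cholesterol at a level that permits insulin secretion.

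The WT library held 8569 barcodes and 114324626 UMIs, and the *Npc1*-/- library held 7646 barcodes and 127122035 UMIs. Barcodes with more than 1000 genes, fewer than 50000 UMIs, less than 10% mitochondrial and at most 0.1% haemoglobin UMIs were kept, which left 4628 WT and 4269 *Npc1*-/- barcodes. They were classed by the leading hormone where it reached 10% of the UMIs, and otherwise by marker genes. The insulin-led class held 1833 WT and 1826 *Npc1*-/- barcodes, the glucagon-led class 1048 and 857, the somatostatin-led class 189 and 141, and the *Ppy*/*Pyy*-led class 411 and 442. Endothelial-like barcodes numbered 419 and 408, stellate-like ones 236 and 253, macrophage-like ones 46 and 31, mesenchymal-like ones 38 and 34, and Schwann-like ones 34 and 43. The insulin-led class was led by *Ins1*, *Ins2*, *Slc2a2*, *Ucn3* and *Mafa* as β cells are, whereas the *Ppy*/*Pyy*-led class also carried the δ cell genes *Sst* and *Ly6h* among its 10 leading genes and is called by its rule. B cell-like barcodes numbered 140 in WT and 1 in *Npc1*-/-, and T cell-like ones 66 and 0. Only 3 kept cell barcodes were shared by both libraries.

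Levels are given in CPM, the UMIs of a gene summed over all barcodes of its class in 1 library and scaled to 1e+06 UMIs outside 8 hormone genes, since insulin alone took 50.9% to 53.2% of the UMIs of a median insulin-led barcode. Orders of levels are over the 9 classes numbered before the B cell-like barcodes and hold on this scale. Neighbours are classes next to each other in the order of CPM averaged over both libraries, and other classes may lie between them in a single library. As CPM of all UMIs the insulin-led class stood lower against the non-endocrine classes, and in WT it was the lowest of the 9 for *Npc1*, *Npc2*, *Lipa* and *Stard3*. Differences between genotypes are log2 ratios of *Npc1*-/- over WT, with 0.5 counts added to each sum, given relative to the median gene of the class. That median was 0.06 on the log2 scale in insulin-led cells and lay between -0.01 and 0.02 in the other 5 classes with at least 50 barcodes per library, for which ratios are given. Each genotype had 1 library, so that genotype cannot be told apart from mice, dissociation and library preparation, no test between genotypes was possible, and the 95% intervals printed in parentheses cover counting error only. As a background, 2.01% of the 10618 genes with at least 5 CPM in insulin-led cells were 1.5-fold or more higher in *Npc1*-/- than the median gene, and 1.87% were 1.5-fold or more lower. In the other classes with fewer UMIs these shares were 1.22% and 1.43% (glucagon-led), 7.49% and 6.63% (somatostatin-led), 3.05% and 3.29% (*Ppy*/*Pyy*-led), 1.99% and 4.36% (endothelial-like), and 7.14% and 7.97% (stellate-like).

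*Npc1* itself was lower in the library labelled Npc1KO in each of these 6 classes, and its transcripts were still counted there. The kept WT barcodes summed to 790 UMIs (15.4 CPM) and the kept *Npc1*-/- barcodes to 391 (7.33 CPM), which gave 0.462 times the WT level relative to the median gene (0.408 to 0.522). The gene (ENSMUSG00000024413) has 25 exons and lies on the minus strand of chromosome 18 from 12189692 to 12236400 of GRCm38, where *Rmc1* and *Gm15956* overlap it on the opposite strand, and whether the counting used strand is not given in the sources used here. The part of the gene that the knockout allele removes is not given in the sources used here, and 3′ tags may lie outside it, so that these counts check the labels only in part.

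In insulin-led cells *Npc1* had 319 UMIs in WT and 143 in *Npc1*-/- (13.8 and 5.97 CPM) and a log2 ratio of -1.27 (-1.56 to -0.98). Glucagon-led cells held 164 and 93 UMIs of *Npc1*, with a log2 ratio of -0.74 (-1.12 to -0.36), and the insulin-led ratio lay below the glucagon-led ratio by -0.53 (-0.99 to -0.06). *Npc1* stood at 77 and 39 UMIs in *Ppy*/*Pyy*-led cells, a log2 ratio of -1.23 (-1.84 to -0.67), and at 85 and 44 UMIs in endothelial-like cells, a log2 ratio of -1.14 (-1.71 to -0.60). The reduction was 1.5-fold or more in 5 of the 6 classes, and the interval lay below the median gene in 4, as it did for 27.4% of all genes in insulin-led, 10.8% in glucagon-led, 9.23% in *Ppy*/*Pyy*-led, 7.65% in endothelial-like, 5.37% in somatostatin-led and 5.63% in stellate-like cells. Counts were too low to fix its size in somatostatin-led cells, with 28 UMIs in WT and 13 in *Npc1*-/- and a log2 ratio of -0.93 (-2.03 to 0.03), and in stellate-like cells, with 19 and 15 UMIs and a log2 ratio of -0.41 (-1.499 to 0.64).

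By cell class, *Npc1* in WT ranged from 11.9 CPM in stellate-like cells to 69.1 in Schwann-like cells, the latter from only 17 UMIs. The 4 endocrine classes lay close together in WT at 13.6 to 16.3 CPM, and the endothelial-like class stood at 21.4. No pair of classes that were neighbours in the order of levels had separate intervals in both libraries. Mesenchymal-like cells had 8 UMIs of *Npc1* in WT and 0 in *Npc1*-/-, which allows up to 8.67 CPM there, and Schwann-like cells had 17 and 4.

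**Figure D1:**
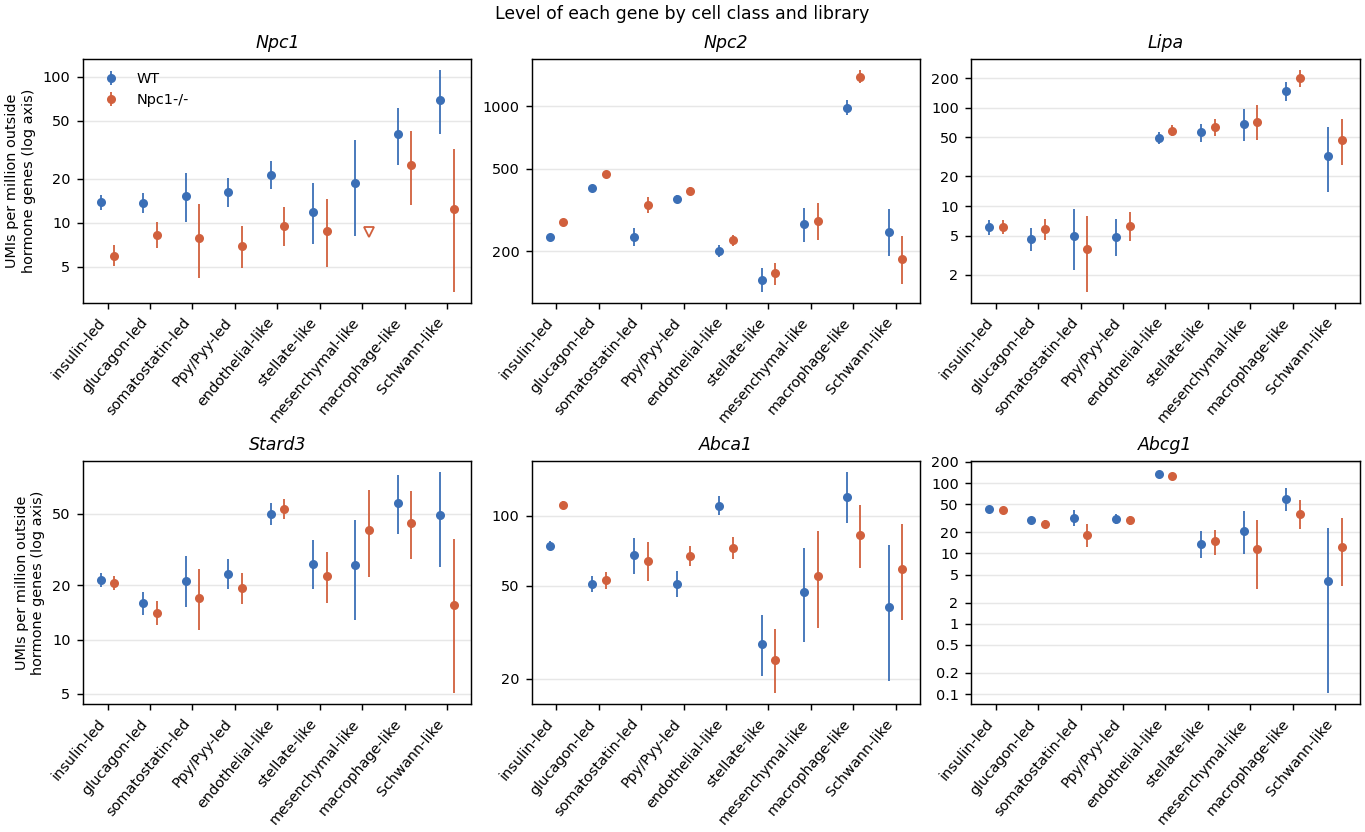
Level of each of the 6 genes by cell class, in CPM (UMIs per 1e+06 outside the hormone genes) on a log axis, with WT in blue and *Npc1*-/- in orange. Points are sums over the barcodes of 1 library and bars are exact 95% Poisson intervals for counting error. The open triangle marks the level of 3 counts, taken as the limit for 0 UMIs. *Npc1* was lower in *Npc1*-/- in all 9 classes shown, *Lipa* separated the endocrine from the non-endocrine classes shown, and *Abca1* was higher in endothelial-like than in insulin-led cells in WT and lower in *Npc1*-/- on this scale.

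*Npc2*, the luminal partner of NPC1, was slightly higher in *Npc1*-/- in each of the 6 classes. Of the classes without a ratio, Schwann-like cells went the other way, with 61 UMIs in WT and 59 in *Npc1*-/-. Their levels were 248.1 CPM (189.8 to 318.7) and 183.7 (139.8 to 236.9), with intervals that overlap. Macrophage-like and mesenchymal-like cells were higher in *Npc1*-/-, the latter at 269.9 and 280.5 CPM with intervals that overlap. The insulin-led sum was 5447 UMIs in WT against 6659 in *Npc1*-/- (235.6 and 278.2 CPM), with a log2 ratio of 0.18 (0.13 to 0.23). The difference in glucagon-led cells was about as large, with 4882 and 5260 UMIs, 405.8 and 469.3 CPM, and a log2 ratio of 0.19 (0.13 to 0.24). *Ppy*/*Pyy*-led cells held 1685 and 2180 UMIs of *Npc2*, with a log2 ratio of 0.11 (0.02 to 0.20), and endothelial-like cells 796 and 1039, with 0.19 (0.05 to 0.32). Somatostatin-led cells had the widest gap between the libraries, with 431 and 548 UMIs, 234.9 and 334.2 CPM, and a log2 ratio of 0.49 (0.31 to 0.68), which lay above the insulin-led ratio (difference -0.31, -0.50 to -0.12). The interval excluded the median gene in 5 of 6 classes, all but the stellate-like class with 233 and 265 UMIs and 0.11 (-0.15 to 0.37).

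None of these *Npc2* differences reached 1.5-fold. An interval above the median gene was common at this depth, since it was found for 24.3% of the genes tested in insulin-led cells, 9.73% in glucagon-led, 4.78% in somatostatin-led, 8.49% in *Ppy*/*Pyy*-led, 7.81% in endothelial-like and 5.26% in stellate-like cells. In insulin-led cells *Npc2* stood at percentile 77.8 of all tested genes, and in somatostatin-led cells at percentile 89.99.

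Across cell classes the level of *Npc2* in WT spanned 146.0 to 986.2 CPM. Macrophage-like cells, whose lysosomes digest engulfed material, held that highest level in WT (903 to 1075) and 1388 in *Npc1*-/- (1289 to 1494), from 515 and 721 UMIs. Of the 9 classes, they were followed by glucagon-led cells and then by *Ppy*/*Pyy*-led cells at 357.6 and 389.5 CPM. Outside these classes, the T cell-like barcodes of WT stood above glucagon-led cells, at 506.2 CPM (434.0 to 587.1) from 175 UMIs. Stellate-like cells were lowest in both libraries, at 156.5 CPM in *Npc1*-/-, whereas as CPM of all UMIs insulin-led cells were lowest, at 99.4 in WT and 123.0 in *Npc1*-/-. Of the 8 pairs of neighbours in the order of levels, 4 had separate intervals in both libraries, namely macrophage-like over glucagon-led, glucagon-led over *Ppy*/*Pyy*-led, *Ppy*/*Pyy*-led over somatostatin-led, and endothelial-like over stellate-like cells. Macrophage-like barcodes had a median of 11137 UMIs in WT and 16941 in *Npc1*-/-, and with 46 and 31 barcodes no ratio between genotypes is given for them.

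*Npc2* (ENSMUSG00000021242, 4 exons) lies on the minus strand of chromosome 12 from 84773152 down to 84754562. The 250 bases before its RefSeq start are shown because *Npc2* was the gene whose differences between genotypes ran in 1 direction over endocrine, endothelial-like and stellate-like cells, apart from *Npc1*. They span chr12:84773113-84773362 of GRCm38.p6 on the minus strand and are written 5′ to 3′, with matches to CCAAT and to GGGCGG on either strand in capitals.
Npc2: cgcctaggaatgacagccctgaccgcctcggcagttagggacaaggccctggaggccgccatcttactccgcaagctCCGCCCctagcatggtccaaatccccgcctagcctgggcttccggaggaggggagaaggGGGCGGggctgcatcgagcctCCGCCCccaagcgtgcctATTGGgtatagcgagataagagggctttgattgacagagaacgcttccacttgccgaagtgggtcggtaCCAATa
The stretch held 2 matches to CCAAT and 3 to GGGCGG, and no match to CACGTG, to TATAAA or to the sterol element letters TCACNCCAC. The gene start given above, 84773152, lies inside this stretch. The CCAAT match 6 to 2 bases before the RefSeq start therefore falls within the annotated gene. CCAAT occurred in 33.8% and GGGCGG in 32.7% of 32851 promoter stretches of the same length, both strands searched.

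*Lipa*, the acid lipase, did not differ detectably between genotypes in 5 of 6 classes, and its level was far lower in the 4 endocrine classes than in the 5 non-endocrine classes described. Insulin-led cells held 140 WT and 146 *Npc1*-/- UMIs, or 6.06 and 6.10 CPM, with a log2 ratio of -0.05 (-0.39 to 0.29). Glucagon-led cells held 55 and 65 UMIs, with a log2 ratio of 0.32 (-0.22 to 0.86), *Ppy*/*Pyy*-led cells 23 and 35, with 0.33 (-0.45 to 1.17), and somatostatin-led cells only 9 and 6, with -0.40 (-2.21 to 1.21). Endothelial-like cells reached 195 and 270 UMIs, or 49.1 and 58.9 CPM, and the interval of their log2 ratio just excluded the median gene (0.27, 0.0021 to 0.55). The stellate-like class, with 90 and 107 UMIs, had a log2 ratio of 0.17 (-0.25 to 0.59).

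Across classes *Lipa* was 147.5 and 200.3 CPM in macrophage-like cells and at most 6.25 in the 4 endocrine classes. The 5 non-endocrine classes lay at 32.5 CPM or more in both libraries, while the B cell-like barcodes of WT stood at 12.5 CPM (5.73 to 23.8) from 9 UMIs, and the step from Schwann-like to insulin-led cells was 5.37 times in WT and 7.66 times in *Npc1*-/-. That step and the step from macrophage-like to mesenchymal-like cells were the 2 of 8 neighbour pairs with separate intervals in both libraries. Free RNA from broken cells can give UMIs to droplets of other cells, and the part of this in the low endocrine counts of *Lipa* was not tested. The summed level of 8 macrophage markers in insulin-led cells was 65.4 CPM in WT and 99.4 in *Npc1*-/-, against 18799 and 26465 in macrophage-like cells. *C1qa* alone made up 62.8 and 96.9 CPM of these insulin-led sums, and each of the other 7 markers stood at 1.04 CPM or less, with *Adgre1* at 0 in WT. *Lipa* (ENSMUSG00000024781, 10 exons) is on the minus strand of chromosome 19 between 34492318 and 34527474. Its promoter stretch held 1 match each to CCAAT and TATAAA.

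*Stard3*, which tethers late endosomes, did not differ detectably between genotypes, and its interval included the median gene in all 6 classes. Insulin-led cells held 493 WT and 494 *Npc1*-/- UMIs, or 21.3 and 20.6 CPM, and a log2 ratio of -0.11 (-0.29 to 0.08). The log2 ratio was -0.20 (-0.52 to 0.11) in glucagon-led cells with 192 and 158 UMIs, and -0.27 (-0.67 to 0.12) in *Ppy*/*Pyy*-led cells with 109 and 108. It was -0.33 (-1.09 to 0.40) from 39 and 28 UMIs in somatostatin-led cells, and -0.22 (-0.89 to 0.45) from 42 and 38 in stellate-like cells. Endothelial-like cells were the class with a ratio above the median gene, from 197 and 244 UMIs, at 0.11 (-0.16 to 0.39). Reductions of more than 0.29 on the log2 scale in insulin-led cells lay outside the interval.

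*Stard3* was highest in endothelial-like cells at 49.6 and 53.2 CPM and in macrophage-like cells at 57.4 and 44.3. It was lowest in glucagon-led cells at 15.96 and 14.1, though as CPM of all UMIs insulin-led cells were lowest at 8.998 and 9.12, and no neighbours in its order had separate intervals in both libraries. The gene (ENSMUSG00000018167, 15 exons) lies on the plus strand of chromosome 11 from 98358368 to 98381112. Among the 4 of the 6 genes with an entry in the RefSeq promoter table, *Npc2*, *Lipa*, *Stard3* and *Abca1*, it was the one that matched the sterol element letters, as TCACTCCAC from 211 to 203 bases before the start. These letters occurred in 1.05% of all promoter stretches.

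*Abca1*, the transporter that loads cholesterol onto apolipoprotein A-I, was higher in *Npc1*-/- in insulin-led cells and lower in endothelial-like cells. Insulin-led cells held 1722 WT and 2669 *Npc1*-/- UMIs, or 74.5 and 111.5 CPM, which was 1.44 times the WT level relative to the median gene (1.35 to 1.53), a log2 ratio of 0.52 (0.43 to 0.61). Endothelial-like cells held 438 and 334 UMIs, or 110.3 and 72.8 CPM, which was 0.666 times the WT level (0.575 to 0.769), a log2 ratio of -0.59 (-0.80 to -0.38). The log2 ratios of these classes differed by 1.11 (0.88 to 1.33). The insulin-led value stood at percentile 97.1 of all genes tested in that class and just short of 1.5-fold, and the endothelial-like value stood at percentile 4.35 and reached 1.5-fold.

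The other endocrine classes lay between these values. *Ppy*/*Pyy*-led cells had 240 UMIs of *Abca1* in WT and 377 in *Npc1*-/- (50.9 and 67.4 CPM) and a log2 ratio of 0.39 (0.15 to 0.63). Glucagon-led cells had 612 and 592 UMIs, or 50.9 and 52.8 CPM, and a log2 ratio of 0.03 (-0.14 to 0.20). The insulin-led ratio exceeded the glucagon-led ratio by 0.49 (0.31 to 0.68), whereas it differed from the *Ppy*/*Pyy*-led ratio by 0.13 (-0.12 to 0.38). Somatostatin-led cells, with 124 and 105 UMIs, stood at -0.09 (-0.48 to 0.29), and stellate-like cells, with 45 and 41, at -0.21 (-0.86 to 0.43). Macrophage-like cells held 63 and 43 UMIs, or 120.6 and 82.8 CPM with intervals that overlap.

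The order of the classes for *Abca1* outside the hormone genes differed between the libraries. In WT the macrophage-like and endothelial-like classes were highest and the insulin-led class came next. In *Npc1*-/- the insulin-led class was highest (107.3 to 115.8), with an interval that overlapped that of macrophage-like cells (59.9 to 111.5). As CPM of all UMIs the insulin-led class was below both in each library, at 31.4 in WT and 49.3 in *Npc1*-/-, against 107.8 and 71.9 in endothelial-like and 116.7 and 82.1 in macrophage-like cells. The stellate-like class was lowest of the 9 classes in both libraries, at 28.2 and 24.2 CPM outside the hormone genes, and the B cell-like barcodes of WT stood at 16.7 (8.63 to 29.2) from 12 UMIs. T cell-like barcodes of WT stood at 14.5 (4.70 to 33.8) from 5 UMIs. When each barcode was thinned to 3000 UMIs outside the hormone genes, *Abca1* was found in 20.03% of 1797 WT (18.2 to 21.96) and 29.5% of 1778 *Npc1*-/- (27.4 to 31.7) insulin-led barcodes, against 7.02% of 228 and 5.96% of 235 stellate-like barcodes. Without thinning the insulin-led shares were 55.0% and 70.2%, at median depths of 12404 and 12834 UMIs outside the hormone genes, and the stellate-like shares 16.9% and 12.3%, at median depths of 6257 and 6231. In endothelial-like barcodes the thinned shares of 21.8% in WT (17.9 to 26.1) and 18.5% in *Npc1*-/- (14.8 to 22.6) had intervals that overlap. Thinned endothelial-like barcodes with 2 or more UMIs of *Abca1* made up 6.37% in WT and 2.71% in *Npc1*-/-. Without thinning the endothelial-like shares were 48.9% and 47.1%, at median depths of 7386 and 8829.5 UMIs outside the hormone genes. No class known to lack *Abca1* was at hand for the share that free RNA gives.

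*Abca1* (ENSMUSG00000015243, 50 exons) lies on the minus strand of chromosome 4 from 53159895 down to 53030787. The 250 bases before its start, chr4:53159896-53160145 of GRCm38.p6 on the minus strand, are shown because *Abca1* is a textbook LXR target and had intervals on opposite sides of the median gene in different classes. Capitals mark, from 5′ to 3′, a CACGTG element, a match on the opposite strand to the LXR-type direct repeat GGTTA and GGTCA with 5 bases between them, and a TATAAA element, while 2 further matches to GGGCGG are left in lower case.
Abca1: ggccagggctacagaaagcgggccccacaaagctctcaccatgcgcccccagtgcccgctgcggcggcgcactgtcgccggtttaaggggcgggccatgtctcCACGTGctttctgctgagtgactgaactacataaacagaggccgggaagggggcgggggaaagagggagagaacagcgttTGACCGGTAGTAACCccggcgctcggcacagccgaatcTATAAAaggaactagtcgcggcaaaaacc
The direct repeat match lay 67 to 53 bases before the start, the CACGTG element 147 to 142 and the TATAAA element 29 to 24. The repeat letters were found in 15 of 32851 promoter stretches (0.0457%), CACGTG in 6.02% and TATAAA in 12.4%. The longer palindrome that has GT before and AC after a CACGTG centre, which occurred in 0.240% of the stretches, was found in none of the 4 promoters searched. These are matches of letters and not measured binding.

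*Abcg1*, the second efflux transporter and likewise an LXR target, did not follow *Abca1*. Insulin-led cells held 972 WT and 987 *Npc1*-/- UMIs, or 42.0 and 41.2 CPM, with a log2 ratio of -0.09 (-0.22 to 0.04), so that an increase of the size seen for *Abca1* lay outside its interval. In endothelial-like cells it had 527 and 576 UMIs, or 132.8 and 125.6 CPM, and a log2 ratio of -0.07 (-0.24 to 0.11). Glucagon-led cells stood at -0.18 (-0.41 to 0.04) from 356 and 297 UMIs, *Ppy*/*Pyy*-led cells at -0.07 (-0.40 to 0.26) from 145 and 165, and stellate-like cells at 0.10 (-0.78 to 1.003) from 22 and 25. In somatostatin-led cells the 59 UMIs in WT and 30 in *Npc1*-/- (32.2 and 18.3 CPM) gave a log2 ratio of -0.82 (-1.52 to -0.17), where 6.63% of all genes were 1.5-fold or more lower.

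Endothelial-like cells were the class with the highest *Abcg1* in both libraries, 2.24 times the level of macrophage-like cells in WT and 3.43 times in *Npc1*-/-. Insulin-led cells stood above the *Ppy*/*Pyy*-led class by 1.37 and 1.399 times, and these were the 2 of 8 neighbour pairs with separate intervals in both libraries. As CPM of all UMIs the step from insulin-led to *Ppy*/*Pyy*-led cells was gone, at 17.7 against 17.8 in WT and 18.2 against 17.6 in *Npc1*-/-. Macrophage-like cells held 31 and 19 UMIs, and Schwann-like cells 1 and 4. *Abcg1* (ENSMUSG00000024030, 15 exons) lies on the plus strand of chromosome 17 from 31057675 to 31117988, with the small gene *Gm25447* inside it on the same strand.

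**Figure D2:**
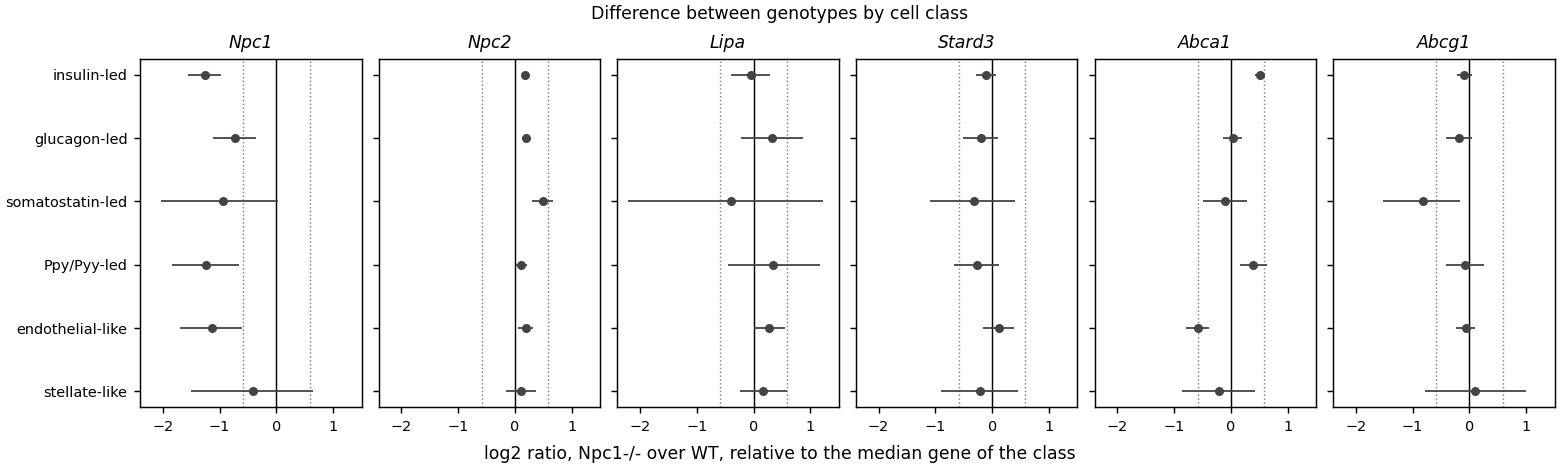
Log2 ratio of *Npc1*-/- over WT for each gene in the 6 classes with at least 50 barcodes per library, relative to the median gene of the class (solid line at 0). Bars are 95% intervals for counting error in 1 library per genotype and dotted lines mark 1.5-fold. *Npc1* lay below 0 in all 6 classes, *Npc2* above 0 in all 6, and *Abca1* at 0.52 in insulin-led and -0.59 in endothelial-like cells.

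Insulin-led cells of the *Npc1*-/- library carried more of the PP-family hormones *Ppy* and *Pyy*, which the study uses to mark immature β cells. The median share of these hormones in a barcode was 0.348% of UMIs in WT and 0.783% in *Npc1*-/-. The insulin-led barcodes were therefore divided at the median share over both libraries, 0.541%, which put 1073 WT and 756 *Npc1*-/- barcodes below it and 760 and 1070 at or above it. *Abca1* was higher in *Npc1*-/- by 0.54 (0.41 to 0.67) on the log2 scale below the median and by 0.48 (0.35 to 0.61) above it. Its level below the median was 71.9 CPM in WT and 108.6 in *Npc1*-/-, and above it 78.2 and 113.6. *Npc2* was higher by 0.24 (0.17 to 0.31) and 0.20 (0.12 to 0.28), and in both libraries its level was lower in the barcodes rich in PP-family hormones, at 216.8 against 248.6 CPM in WT and 259.4 against 304.7 in *Npc1*-/-. *Npc1* stood at -1.47 (-1.94 to -1.04) below and -1.04 (-1.46 to -0.64) above the median. For *Lipa*, *Stard3* and *Abcg1* the interval included the median gene on both sides. The division did not make the libraries alike in the β cell maturation marker *Ucn3*. It stood at -0.33 (-0.38 to -0.28) below and -0.59 (-0.67 to -0.51) above the median. *Mafa* stood at 0.05 (0.004 to 0.10) and -0.12 (-0.19 to -0.04).

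**Figure D3:**
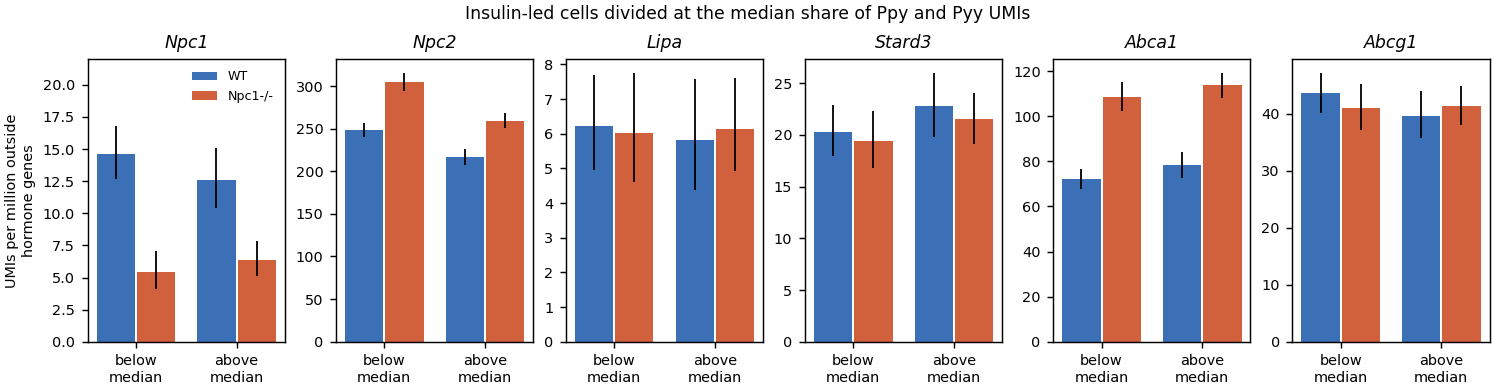
Level of each gene in insulin-led barcodes below and at or above the median share of *Ppy* and *Pyy* UMIs (0.541%), in CPM (UMIs per 1e+06 outside the hormone genes), with WT in blue and *Npc1*-/- in orange. Bars are sums over the barcodes of 1 library with exact 95% Poisson intervals for counting error. *Abca1* and *Npc2* were higher and *Npc1* lower in *Npc1*-/- on both sides of the median.

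Markers of other cells also differed between the libraries within the insulin-led class. The summed level of *Ppy* and *Pyy* was 22740 CPM in WT and 38196 in *Npc1*-/-. The 7 acinar markers summed to 241.8 and 70.9, the 10 endothelial markers to 110.3 and 135.4, the 9 stellate markers to 55.9 and 58.2, and the 5 B cell markers to 21.5 and 3.93, with *Ighm* at 0 in *Npc1*-/-. *Fos*, *Hspa1a* and *Dnajb1*, which respond to tissue dissociation, took 0.0880% of the UMIs outside the hormone genes in WT insulin-led cells and 0.0228% in *Npc1*-/-, and 0.156% and 0.102% in endothelial-like cells. In the endothelial-like class the 9 β cell markers summed to 18641 CPM in WT and 10648 in *Npc1*-/-, with all 9 counted in both. The part of these differences in the ratios of the 6 genes was not tested. Leaving out barcodes rich in the 3 stress genes removed 48 of 1833 WT and 0 of 1826 *Npc1*-/- insulin-led barcodes. In the endothelial-like class it removed 12 of 419 and 3 of 408. *Abca1* then stood at 0.52 and *Npc2* at 0.18 in insulin-led cells, and *Abca1* at -0.57 in endothelial-like cells. Leaving out hormone-led barcodes with 3 or more markers of a non-endocrine class removed 41 WT and 54 *Npc1*-/- insulin-led barcodes. The insulin-led values were then 0.52 and 0.18. With so few barcodes left out, these values could hardly move.

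Of 84 other genes of cholesterol handling in 7 lists, 74 were measured in insulin-led cells, where 4 were 1.5-fold or more higher in *Npc1*-/- and 0 lower, against 2.01% and 1.87% of all genes. They included *Soat1*, which esterifies cholesterol for storage, and *Lss*, an enzyme of sterol synthesis. *Soat1* had 712 UMIs in WT and 1589 in *Npc1*-/-, a log2 ratio of 1.05 (0.92 to 1.18). *Lss* stood at 319 and 551 UMIs, with 0.68 (0.48 to 0.88).

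The lists that surround the 6 genes divided by role in insulin-led cells. In the LDL uptake list 7 of 8 genes lay above the median gene, 6 of them with an interval above it, and the median log2 ratio was 0.38. In the sterol synthesis list all 18 genes lay above the median gene, 12 with an interval above it, and the median was 0.20. In contrast, the 12 genes for membrane and luminal partners in the lysosome had a median of 0.01, with 3 intervals above and 5 below, and the 17 genes for sterol transfer at membrane contacts a median of 0.00, with 3 above and 5 below. Of the efflux and LXR list without the 6 genes, 13 of 17 were measured, with a median of 0.08, 5 intervals above and 2 below. The list of ester storage and oxysterols had 3 of 8 genes measured and a median of 0.14, and the *Tfeb* family 3 of 4 measured and a median of -0.23. For comparison, 24.3% of all genes had an interval above and 27.4% one below, and the median gene is 0 by construction.

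In the other classes the sterol synthesis list stood at a median of 0.41 in glucagon-led, 0.46 in somatostatin-led and 0.45 in *Ppy*/*Pyy*-led cells, and at -0.08 in endothelial-like and 0.16 in stellate-like cells. Of its genes in glucagon-led cells, where *Abca1* stood at 0.03, 16 of 18 lay above the median gene and 13 had an interval above it, beside 9.73% of all genes. In endothelial-like cells 6 of 16 measured genes lay above the median gene, and 15 of the 16 intervals included it. The LDL uptake list, at 0.38 in insulin-led cells, had a median of 0.01 in glucagon-led, -0.20 in somatostatin-led, 0.26 in *Ppy*/*Pyy*-led, -0.01 in endothelial-like and 0.06 in stellate-like cells.

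**Figure D4:**
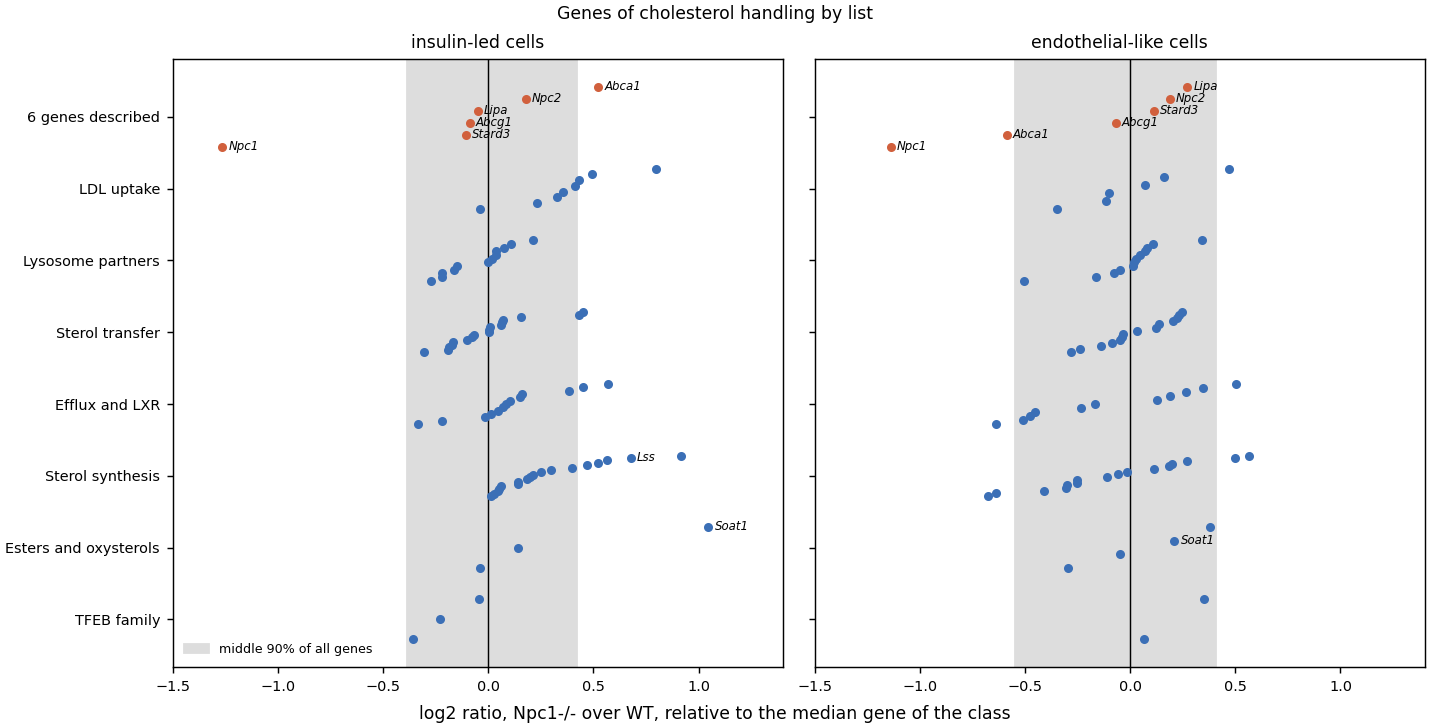
Log2 ratio of *Npc1*-/- over WT relative to the median gene for the 6 genes (orange) and 7 lists of cholesterol genes (blue) in insulin-led and endothelial-like cells, 1 point per gene that reached 5 CPM in WT or *Npc1*-/-. The grey band holds the middle 90% of all genes tested, and names mark the 6 genes, *Soat1* and *Lss*. In insulin-led cells *Abca1*, *Soat1* and *Lss* were among the genes to the right of the band, and *Npc1* lay to the left.

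Likeness of pattern was described over 12 sums (6 classes in 2 libraries) for 9830 genes, as Pearson's r of log2 levels after adding 5 CPM. These sums share libraries and depth and are not independent, so r is given as a description. *Npc1* had no close match, with *Ahsa2* first at 0.83, followed by *Zkscan3* at 0.82 and *Hspa8* at 0.80. *Npc2* was most like *Myh10* at 0.96, *Tmeff1* at 0.96 and *Dclk2* at 0.95, and *Lipa* most like *Nes*, *Tril* and *Msrb3*, at 0.997, 0.997 and 0.996. *Stard3* was most like *Sypl* at 0.98, *Nfe2l2* at 0.98 and *Med17* at 0.97. *Abca1* was most like *Ccz1*, *Mvp* and *Taok2*, at 0.94, 0.94 and 0.93, and *Abcg1* most like *Nav3* at 0.99, *6430548M08Rik* at 0.97 and *Plxna2* at 0.97. Among the 6 genes themselves *Abcg1* paired with *Stard3* at 0.78 and with *Abca1* at 0.73, *Lipa* with *Stard3* at 0.74, and *Npc2* ran opposite to *Lipa* at -0.79. The 12 sums leave out macrophage-like cells, where both *Npc2* (986.2 and 1388 CPM) and *Lipa* (147.5 and 200.3) were highest. The opposite course of these genes therefore holds for the 6 classes used.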

How the data were processed

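Count matrices of 10x Genomics 3′ sequencing of dispersed islet cells were analysed from 1 WT and 1 *Npc1*-/- library. The deposited values were whole-number UMI counts for each gene in the barcodes that Cell Ranger called as cells, which the authors had not normalized, and the submitters' processing notes name Cell Ranger 3.1.0, Seurat 4.0.3 and mm10. The version of the 10x reagents differs between the labels and the paper's methods. The 2 libraries held 12 cell barcodes in common before filtering.

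Barcodes were filtered by gene number, UMI number and the shares of mitochondrial and haemoglobin UMIs, with the limits that the study states. Doublets were not removed, and Scrublet was an alternative: its own threshold marked 1.43% of WT and 0.164% of *Npc1*-/- barcodes, and the expected rate 6.86% and 6.12%. A hormone-led class needed 10% of UMIs, and 80 WT and 62 *Npc1*-/- barcodes lay between 8% and 12%. A marker class needed 3 detected markers and a lead of 0.2 in the share of its list detected, limits set after the data were seen, and 157 and 216 barcodes stayed unassigned. UMIs were summed per class and library and scaled to counts per 1e+06 UMIs (CPM) outside *Ins1*, *Ins2*, *Gcg*, *Sst*, *Ppy*, *Pyy*, *Iapp* and *Ghrl*. Sums have exact Poisson, ratios conditional binomial and shares Clopper-Pearson intervals at 95%, for counting error only. Differences of 2 log2 ratios have 95% Wald intervals, which also cover counting error only. These use a normal approximation and the counts of all sums involved, with 0.5 added to each. A count of 0 allows up to 3 counts.

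The 6 genes, the lists of cholesterol genes and the markers were chosen with earlier results of these data known. Named beside the 6 genes were the list genes 1.5-fold or more from the median gene in insulin-led cells, up to 3 per list and direction, and the 3 genes of most like pattern, among those with at least 20 CPM in a sum. Some genes that this rule would name are not reported here. Alternatives were a looser and a stricter barcode filter, doublet removal, a hormone limit of 20%, mixed barcodes left out, other low limits for the median gene, other scalings including edgeR's TMM factor, the mean over barcodes and each side of the *Ppy* and *Pyy* median. Barcodes rich in stress genes and shared barcodes were left out as alternatives chosen after seeing the data. Positions come from the GENCODE annotation of GRCm38 and promoters from RefSeq (GRCm38.p6), where 4 of the 6 genes matched. The tools were edgeR 4.0.16 in R 4.3.3 and scanpy 1.11.5, pandas 2.3.3, scipy 1.17.1 and numpy 2.4.6 in Python 3.11.15. The calculation of the ratios was checked on simulated Poisson counts. These hold counting error only, so the check says nothing on variation between mice, cells or preparations.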

Additional observations from a re-analysis of the deposited data

Results flagged for a closer look

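The log2 ratio of *Abca1* between *Npc1*-/- and WT, relative to the median gene, took opposite directions in classes of the same 2 libraries. Between insulin-led and endothelial-like cells it differed by 1.11 (0.52 against -0.59), and between *Ppy*/*Pyy*-led and endothelial-like cells by 0.98 (0.39 against -0.59). The intervals of the single ratios did not overlap the median gene in any of these 3 classes, but they cover counting error in 1 library per genotype, and the difference was not tested over mice. When endothelial-like barcodes were thinned to 3000 UMIs, the shares with *Abca1* were 21.8% in WT and 18.5% in *Npc1*-/-, with intervals that overlap.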

How the results depend on the processing

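With 1 library per genotype, no setting gives an error between mice, and leaving out a replicate is not possible. No paired analysis was possible because each genotype has 1 library. Depth limits *Npc1*, *Lipa*, *Stard3* and *Abcg1* in somatostatin-led and stellate-like cells, where at most 107 UMIs were counted per library.

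Of 481 alternative values for 51 results, 459 stayed within the limit set around the value reported and 22 moved beyond it. For ratios this limit was the counting error. For the counts of genes past 1.5-fold it was a factor of 1.5, and none of these counts moved. Some of the 481 values could not move, or hardly so, and their staying within the limit says little. Leaving out mixed barcodes concerned hormone-led barcodes only, so the endothelial-like (419 and 408) and stellate-like (236 and 253) classes stayed the same. Leaving out shared barcodes kept 1831 of 1833 WT insulin-led barcodes. The sign differed from the reported one in 13 of the 481, over 8 results. In insulin-led cells *Npc1* ranged from -1.47 to -1.04, *Npc2* from 0.13 to 0.31 and *Abca1* from 0.48 to 0.65 over 15 alternatives. In endothelial-like cells *Abca1* ranged from -0.60 to -0.54 over 9, among which leaving out mixed barcodes could not change it. *Lipa* in insulin-led cells ranged from -0.16 to 0.08 and kept its sign in 10 of 15, and *Stard3* and *Abcg1* kept theirs in 14 of 15. Without setting ratios relative to the median gene, *Npc2* in insulin-led cells stood at 0.31 as CPM of all UMIs and 0.24 as CPM outside the hormone genes, and *Abca1* at 0.65 as CPM of all UMIs. Below the median share of *Ppy* and *Pyy*, *Npc2* stood at 0.24. With a hormone limit of 20%, *Npc1* in somatostatin-led cells changed sign to 0.76 (-1.52 to 3.53), and *Lipa* there moved from -0.40 to 1.69, with 44 WT and 37 *Npc1*-/- barcodes left. With the stricter filter *Abcg1* in stellate-like cells moved from 0.10 to 1.74, with 54 WT and 43 *Npc1*-/- barcodes left. The *Npc1*-/- number is under the 50 barcodes set for a ratio. With the main filter the class held only 22 and 25 UMIs of *Abcg1*. The number of list genes 1.5-fold higher in insulin-led cells was 4 to 5, and the number lower stayed at 0.

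Levels between classes depend on the denominator. As CPM of all UMIs, in which insulin takes a large part of the insulin-led sums, the log2 ratio of macrophage-like over insulin-led cells was 2.77 in WT and 3.28 in *Npc1*-/- for *Npc1* (1.58 and 2.12 outside the hormone genes), 3.26 and 3.49 for *Npc2* (2.07 and 2.32), 5.81 and 6.20 for *Lipa* (4.61 and 5.04), and 1.90 and 0.75 for *Abca1* (0.71 and -0.41). That of endothelial-like over insulin-led cells was 2.43 and 2.53 for *Stard3* (1.22 and 1.37) and 2.87 and 2.77 for *Abcg1* (1.66 and 1.61). With the stricter filter, macrophage-like over insulin-led cells in *Npc1*-/- stood at 3.33 for *Npc1*, 2.43 for *Npc2* and 5.65 for *Lipa*, and the cause was not tested.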
